A study of Mus musculus with 22 samples.

Results

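The cluster made of miR-183, miR-96 and miR-182 is a group of microRNAs (miRNAs) that are encoded side by side. Its members were taken by name, as the panel rows for mmu-miR-182, mmu-miR-183 and mmu-miR-96 without the star strands, which gave 3 of the 566 mouse miRNAs measured. They were followed in 22 mouse samples, of which 15 were tissue and 7 were plasma. The tissues were 5 control fallopian tubes (CT), 5 doxycycline-induced fallopian tubes (FT) and 5 metastatic tumors (M), and the plasma samples were 3 from control mice (CS) and 4 from doxycycline-induced mice (TS).

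All mice carried engineered alleles, of Brca1 or Brca2 among others, which a Pax8-Cre system recombines in Pax8-expressing cells, the secretory epithelium of the tube among them, once doxycycline is given. The CT mice were uninduced and carried the same kinds of alleles unrecombined. CT1 and CT3 were Brca1 fl/fl, CT2 was Brca1 fl/+, CT4 was Brca2 fl/fl and CT5 was Brca2 fl/+. Of the induced samples, FT2 was Brca1 -/-, FT4 was Brca2 -/-, and FT1, FT3 and FT5 were Brca2 -/+. M1 and M3 were Brca2 -/-, M4 was Brca2 -/+, and M2 and M6 were Brca1 -/+. Of the metastatic tumors, M1 to M4 were taken from the peritoneum and M6 was an ovarian tumor. The mice of CT2 to CT4 also gave CS2 to CS4, and those of FT2 to FT5 gave TS1 to TS4. Ages and strain were not given in the sources used here, and the mice that gave both an FT and an M sample were not named.

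miRNAs are short RNAs that pair, mainly through their seed near the 5′ end, with sites in messenger RNAs and lower the output of those messengers. The cluster is transcribed as 1 precursor and is best known from sensory epithelia, where it takes part in the development of hair cells and photoreceptors. It is also known as an epithelial cluster that is often raised in carcinomas, and FOXO1 is among the known targets of its members.

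The mature sequences are shown because the members are related and a probe panel has to tell them apart. They are given 5′ to 3′ as RefSeq lists the 5p arms on GRCm38.p6, the arm that an unstarred name without an arm is taken to stand for, with the seed, bases 2 to 8, in capitals. The probes' own sequences were not used here.
miR-182: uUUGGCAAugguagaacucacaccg
miR-183: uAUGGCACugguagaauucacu
miR-96: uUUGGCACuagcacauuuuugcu

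Read base by base from the 5′ end, miR-182 and miR-183 had 18 of 22 bases in common, miR-182 and miR-96 had 12 of 23, and miR-183 and miR-96 had 13 of 22. The 7-base seeds were alike but not the same. The seed of miR-96 had 6 bases in common with that of each of the others, and the seeds of miR-182 and miR-183 had 5 in common. No other mouse miRNA among the 1679 mature sequences of RefSeq had the seed of miR-182 or of miR-183. The seed of miR-96 was found in 1 more, mmu-miR-1271-5p, which was not matched to a row of the panel.

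On GRCm38.p6 the hairpins lie on the minus strand of chromosome 6, Mir182 at chr6:30165918-30165992, Mir96 at chr6:30169446-30169551 and Mir183 at chr6:30169668-30169737. The cluster spans 3820 bases and lies within the long noncoding RNA gene Mirc35hg (chr6:30158640-30174125). Only 116 bases separate the hairpins of miR-96 and miR-183, whereas 3453 bases separate those of miR-182 and miR-96. The mature miR-182-5p lies at chr6:30165962-30165986, miR-183-5p at chr6:30169711-30169732 and miR-96-5p at chr6:30169506-30169528.

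All 3 members were weakly measured, and their counts have to be read against the assay's own negative controls. The NanoString assay counts 1 fluorescent barcode per captured molecule, so a value is a count for a probe in a sample. Each sample also carried 8 negative hybridization controls, probes without a target, and 3 negative ligation controls, for which the matching template was left out. A member was taken as above background where its count exceeded the mean plus 2 SD of these controls in the same sample. The hybridization level lay between 18.3 and 67.7 counts in tissue and between 25 and 48 counts in plasma. A tissue sample held 70164 to 598321 miRNA counts in all, and a plasma sample 18350 to 269005.

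**Figure D1:**
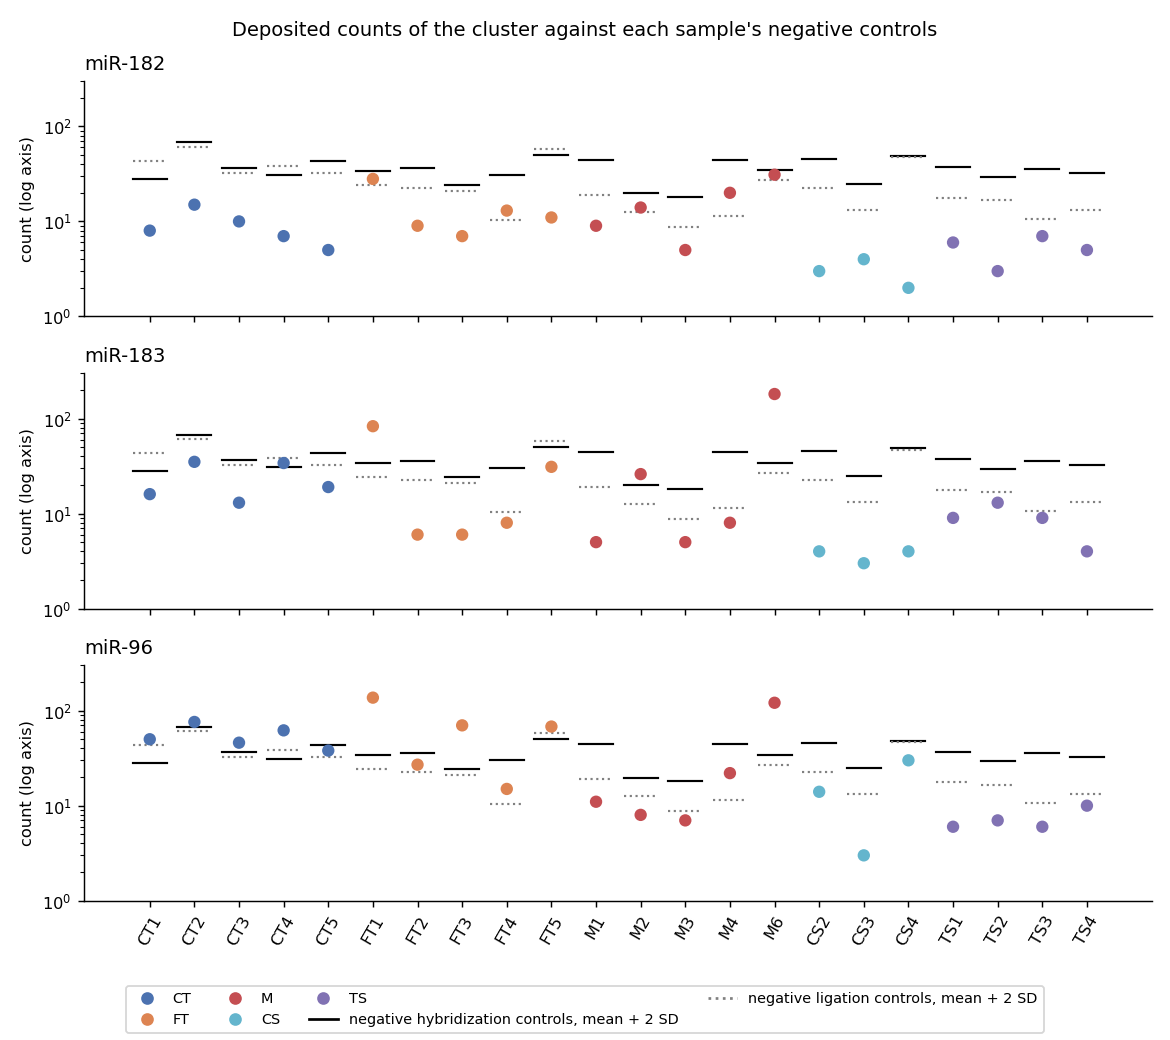
Deposited counts (log axis) of miR-182, miR-183 and miR-96 in each of the 22 samples, coloured by group, with the mean plus 2 SD of the same sample's negative hybridization controls as a solid line and of its negative ligation controls as a dotted line. miR-182 lay below the solid line in all 22 samples, miR-183 lay above it in 4 and miR-96 in 8, and no plasma sample lay above either line.

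The deposited counts of miR-182 in CT1 to CT5 were 8, 15, 10, 7 and 5. In FT1 to FT5 they were 28, 9, 7, 13 and 11. In M1, M2, M3, M4 and M6 they were 9, 14, 5, 20 and 31. No value of miR-182 exceeded the hybridization level of its sample. The ligation level was exceeded in 5 of 22 samples, FT1, FT4, M2, M4 and M6. In plasma the counts of miR-182 were 3, 4 and 2 in CS2 to CS4 and 6, 3, 7 and 5 in TS1 to TS4. miR-182 was therefore not detectable above background in any control tissue or plasma sample. The ligation level itself differed, at 32.4 to 60.6 counts in CT, 10.4 to 57.8 in FT and 8.70 to 27.0 in M. CT2 with 15 counts was below its level and M2 with 14 was above, so detection is not compared between groups.

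miR-183 was counted 16, 35, 13, 34 and 19 times in CT1 to CT5. It was counted 83, 6, 6, 8 and 31 times in FT1 to FT5. In M1, M2, M3, M4 and M6 the counts were 5, 26, 5, 8 and 181. FT1 and M6 had far higher counts than the other samples, and together with M2 they were the only samples above both background levels. FT1 also held the most miRNA counts in all, 598321, and once scaled as below it lay within the range of CT. CT4 exceeded the hybridization level but not the ligation level. In plasma miR-183 gave 4, 3 and 4 counts in CS2 to CS4 and 9, 13, 9 and 4 counts in TS1 to TS4, all below both levels.

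miR-96 was the member most often above background. Its counts were 50, 76, 46, 62 and 38 in CT1 to CT5. They were 137, 27, 70, 15 and 68 in FT1 to FT5. All 5 CT and all 5 FT samples exceeded the ligation level, and CT1 to CT4, FT1, FT3 and FT5 also exceeded the hybridization level. In M1, M2, M3, M4 and M6 miR-96 was counted 11, 8, 7, 22 and 121 times. Of the metastatic tumors, M6 alone was above the hybridization level, and M4 exceeded only the ligation level. In plasma miR-96 gave 14, 3 and 30 counts in CS2 to CS4 and 6, 7, 6 and 10 counts in TS1 to TS4, below both levels in every sample.

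Over the 66 values of the 3 members, 20 exceeded the ligation level, 12 the hybridization level and 11 both. Over all mouse miRNAs and samples, 32.8% of values exceeded the ligation level and 23.3% the hybridization level. A panel row that never rose above the hybridization level was common, since 268 of the 566 miRNAs were of that kind and miR-182 was among them. In M6, the sample with the highest counts of miR-182 and miR-183, the exact 95% Poisson intervals were 21.1 to 44.0 for miR-182, 155.6 to 209.4 for miR-183 and 100.4 to 144.6 for miR-96, which cover counting error only.

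For comparisons between samples each count was scaled to the most abundant miRNAs of its sample, the geometric mean of 100 in tissue and of 30 in plasma, which gave a normalized count. The normalized count of miR-182 was 8.74, 9.83, 9.90, 5.21 and 11.7 in CT1 to CT5, 9.08 ± 2.41 (SD, n = 5). In FT1 to FT5 it was 9.77, 21.3, 15.1, 25.8 and 6.0, 15.6 ± 8.13 (SD, n = 5). The M samples, in the same order, had 24.1, 13.0, 13.8, 48.3 and 21.2, 24.1 ± 14.4 (SD, n = 5). All 5 M samples lay above all 5 CT samples, while the FT samples overlapped with both groups. The deposited counts overlapped between CT (5 to 15) and M (5 to 31), so the separation appeared only after scaling. The scaling factors ran from 0.655 to 2.34 in CT and from 0.682 to 2.76 in M.

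**Figure D2:**
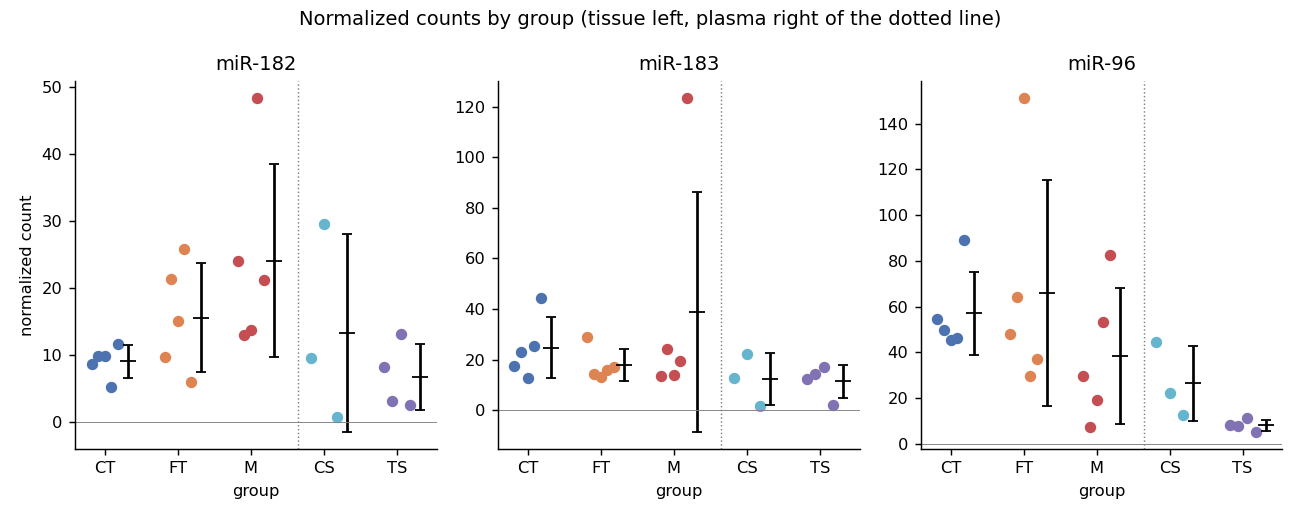
Normalized counts of miR-182, miR-183 and miR-96 in the 3 tissue groups and, right of the dotted line, the 2 plasma groups, which were normalized apart, with 1 point per sample and the mean and SD beside the points. The M samples of miR-182 all lie above the CT samples, M6 stands alone for miR-183 at 123.5, and FT3 stands alone for miR-96 at 151.3.

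Metastatic tumors were compared with control FT to ask which miRNAs differ once tumors have spread. No member passed the threshold of an adjusted p of 0.05 in edgeR's quasi-likelihood test, against 14.5% of all 566 miRNAs. miR-182 came nearest, with a log2 fold change of 1.40 (SE 0.478, 2.63-fold, adjusted p = 0.0581). The separation of the M and CT samples was shared by 7.42% of all miRNAs in that direction. An exact permutation of the sample labels, two-sided and on mean log2 normalized counts, gave p = 0.00794, the smallest value that 5 samples against 5 allow. With groups of bulk samples, fewer cells of a type and less RNA per cell cannot be told apart. Nothing states which samples of a group came from separate litters or preparations, so the p-values measure only the spread between these samples.

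Every count of miR-182 behind this difference was below the hybridization level. Before scaling the 8 negative hybridization controls averaged 13.55 counts in M and 18.1 in CT. After the same scaling they averaged 26.6 ± 18.2 in M (SD, n = 5) and 20.3 ± 12.8 in CT (SD, n = 5). The samples overlapped, from 7.22 to 49.2 in M and from 9.39 to 41.9 in CT. The difference of the mean log2 scaled values was 0.23. The part of background in the difference of miR-182 was not tested. The 291 miRNAs that were at or below the hybridization level in all 10 samples had a median log2 fold change of 0.38, and 5 of them passed the threshold, all higher in M. With the mean of the negative controls subtracted from each sample, the log2 fold change of miR-182 was 4.76 (SE 1.65, edgeR adjusted p = 0.0781). That subtraction left no signal in any CT sample or in M1, M3 and M4, whose counts were below the control mean. The value therefore rests on M2 and M6 and does not measure the size of a difference. The call itself turned on the choice of analysis, since miR-182 passed the threshold with TMM scaling (adjusted p = 0.0131, edgeR) and with DESeq2 at the same scaling (adjusted p = 0.0207). Over 20 alternatives its adjusted p ranged from 0.00202 to 0.177, and 5 of them passed. Without M2 the log2 fold change was 1.57 (edgeR adjusted p = 0.0325) and without M4 it was 1.0 (edgeR adjusted p = 0.177).

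miR-183 had a normalized count of 17.5, 22.9, 12.9, 25.3 and 44.5 in CT1 to CT5, 24.6 ± 12.1 (SD, n = 5). The M samples had 13.4, 24.2, 13.8, 19.3 and 123.5, 38.8 ± 47.5 (SD, n = 5). M6, the ovarian tumor, lay above every other tissue sample and the 4 peritoneal metastases lay within the range of CT. The log2 fold change of miR-183 between M and CT was 0.79 (SE 0.583, edgeR adjusted p = 0.355). Without M6 it became -0.39 (edgeR adjusted p = 0.585), so its direction rested on that sample.

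For miR-96 the normalized counts were 54.6, 49.8, 45.5, 46.1 and 89.0 in CT1 to CT5, 57.0 ± 18.2 (SD, n = 5). The M samples had 29.4, 7.45, 19.3, 53.2 and 82.6, 38.4 ± 29.9 (SD, n = 5). M1, M2 and M3 lay below every CT sample, whereas M4 and M6 lay within the range of CT. The log2 fold change between M and CT was -0.53 (SE 0.509, edgeR adjusted p = 0.467). It was -1.09 without M6 (edgeR adjusted p = 0.144), -0.24 without M2 and -0.32 without CT5.

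Doxycycline-induced FT was compared with control FT to ask which miRNAs differ in the tube itself after induction. Again no member passed the threshold, against 0.177% of all miRNAs, which was 1 of 566. For miR-182 the log2 fold change was 0.73 (SE 0.573, edgeR adjusted p = 0.759), and 3 of 5 FT samples lay above every CT sample. miR-183 had a normalized count of 29.0, 14.2, 13.0, 15.9 and 16.9 in FT1 to FT5, 17.8 ± 6.43 (SD, n = 5), and its log2 fold change was -0.38 (SE 0.483, edgeR adjusted p = 0.778). The FT samples of miR-183 all lay within the range of CT.

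In FT1 to FT5 the normalized count of miR-96 was 47.8, 64, 151.3, 29.8 and 37.1, 66.0 ± 49.4 (SD, n = 5). FT3 lay above all CT samples, and FT4 and FT5 lay below them. The log2 fold change was 0.21 (SE 0.49, edgeR adjusted p = 0.872) and became -0.35 without FT3. Genotypes were not compared, since each was held by few samples.

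Between M and FT the log2 fold changes were 0.67 for miR-182 (SE 0.607, edgeR adjusted p = 0.993), 1.14 for miR-183 (SE 0.630, edgeR adjusted p = 0.691) and -0.75 for miR-96 (SE 0.648, edgeR adjusted p = 0.993). No member passed the threshold, against 1.59% of all miRNAs. Without M6 the value for miR-183 became -0.02, and without FT3 the value for miR-96 was -0.20. This comparison shares its M samples with the comparison of M with CT and its FT samples with that of FT with CT, so the values are not independent of those above. The mice that gave both an FT and an M sample were not named, so the fit treated all samples as separate. Its p-values do not account for shared mice.

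**Figure D3:**
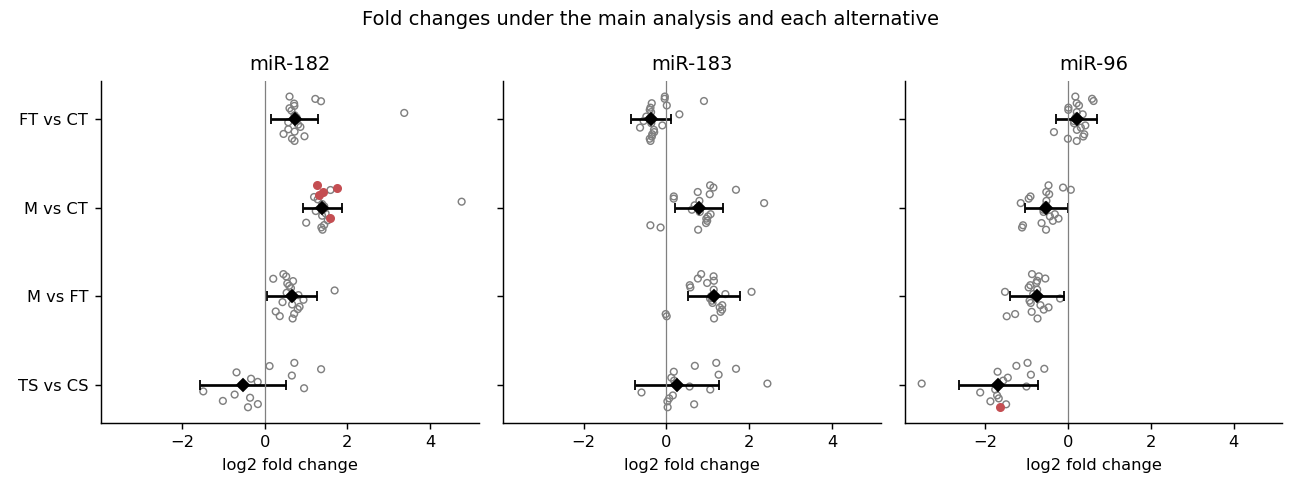
Log2 fold changes of miR-182, miR-183 and miR-96 in the 4 comparisons, with the edgeR value as a black diamond with its SE and each alternative setting or left-out sample as a circle, filled red where its adjusted p was under 0.05. Red circles occur only for miR-182 in M vs CT and for miR-96 in TS vs CS, and the circles of miR-183 in M vs CT lie on both sides of 0.

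Plasma of doxycycline-induced mice was compared with control plasma to look for circulating differences. No member was above background in any plasma sample, so differences between TS and CS were not detectable at these counts. The normalized count of miR-182 was 9.53, 29.6 and 0.83 in CS2 to CS4 and 8.27, 3.26, 13.1 and 2.55 in TS1 to TS4. For miR-183 it was 12.7, 22.2 and 1.66 in CS2 to CS4 and 12.4, 14.1, 16.9 and 2.04 in TS1 to TS4. The CS samples of both members spread more widely than the TS samples. Their log2 fold changes were -0.52 for miR-182 (SE 1.04, edgeR adjusted p = 0.793) and 0.26 for miR-183 (SE 1.02, edgeR adjusted p = 0.890).

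The normalized count of miR-96 was 44.5, 22.2 and 12.4 in CS2 to CS4 and 8.27, 7.61, 11.3 and 5.10 in TS1 to TS4. All TS samples lay below all CS samples, a separation in that direction that 4.59% of all miRNAs had in common. The log2 fold change of miR-96 was -1.69 (SE 0.957, edgeR adjusted p = 0.570), and the two-sided exact permutation test gave p = 0.0571, where 4 samples against 3 allow no less than 0.0286. No miRNA passed the edgeR threshold in plasma (0.00%), and 7.42% had an unadjusted p under 0.05. DESeq2 called 0 at the same scaling and 13 with its own size factors. The normalized negative hybridization controls averaged 15.6 ± 8.46 in TS (SD, n = 4) and 47.3 ± 34.6 in CS (SD, n = 3). The difference of the mean log2 values was -1.33. The 408 miRNAs at or below the hybridization level in every plasma sample had a median log2 fold change of -1.07, against 0.05 for the other 158. With the negative controls subtracted, the log2 fold change of miR-96 was -3.54 (edgeR adjusted p = 0.596), with only CS4 above its control mean. It was -0.98 with TMM scaling, -0.58 with scaling to the positive ligation controls and -1.01 without CS2.

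In the mice with both a tube and a plasma sample, tissue and plasma counts of miR-96 were 76 and 14 in CT2 and CS2, 46 and 3 in CT3 and CS3, and 62 and 30 in CT4 and CS4. In the induced mice they were 27 and 6 in FT2 and TS1, 70 and 7 in FT3 and TS2, 15 and 6 in FT4 and TS3, and 68 and 10 in FT5 and TS4. The plasma reactions held 10 ng of RNA and the tissue reactions 100 ng, so these pairs are shown side by side and not compared. The difference between the FT effect and the plasma effect of miR-96 was 1.89 on the log2 scale (SE 0.875, edgeR adjusted p = 0.453), and 0.00% of miRNAs passed in that test, with 10.1% at an unadjusted p under 0.05. It was 1.24 for miR-182 (edgeR adjusted p = 0.609) and -0.73 for miR-183 (edgeR adjusted p = 0.726). The fit treated tissue and plasma samples of the same mouse as separate, so its SE and p-values do not account for the shared mice.

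Because the 3 members come from 1 precursor, their ratios within a sample were compared between groups. Levels of different probes cannot be set against each other, but the shift of a ratio from group to group does not depend on the scaling of the samples. The log2 ratio of miR-182 to miR-96 was -2.64, -2.34, -2.20, -3.15 and -2.93 in CT1 to CT5. The M samples had -0.29, 0.81, -0.49, -0.14 and -1.96. The ratio was higher in all 5 M samples than in any CT sample, by 2.24 on average (two-sided exact permutation p = 0.00794, 0.0952 after Benjamini-Hochberg adjustment over 12 ratio tests). In FT1 to FT5 it was -2.29, -1.58, -3.32, -0.21 and -2.63, overlapping with both groups.

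The log2 ratio of miR-183 to miR-96, whose hairpins are neighbours, was -1.64, -1.12, -1.82, -0.87 and -1.0 in CT1 to CT5. In FT1 to FT5 it was -0.72, -2.17, -3.54, -0.91 and -1.13, and in M1, M2, M3, M4 and M6 it was -1.14, 1.70, -0.49, -1.46 and 0.58. M2 and M6 had the highest ratios of the 15 tissue samples. The ratio differed by 1.13 between M and CT (exact permutation p = 0.103, adjusted p = 0.229). None of the 12 ratio tests passed 0.05 after adjustment. Many ratios rest on counts at background. By the hybridization level both counts were at or below it in CT5, FT2, FT4 and M1 to M4 for miR-182 and miR-96, and in CT5, FT2, FT4, M1, M3 and M4 for miR-183 and miR-96. In every sample at least the count of miR-182 was below it. For miR-183 and miR-96 both counts were above it only in CT4, FT1 and M6. In M2, with the highest ratio, miR-96 was counted 8 times, below it.

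Other miRNAs that mark epithelial cells were read beside the cluster, namely the miR-200 family (miR-141, miR-200a, miR-200b, miR-200c and miR-429), which holds back the repressors of E-cadherin, and miR-203 and miR-205, known from stratified and basal epithelium. The miR-200 family summed to between 9285 and 11038 normalized counts in CT and between 8247 and 45392 in FT. In M the sums were 545.7 in M1, 2235 in M2, 242.5 in M3, 42010 in M4 and 8891 in M6. M1, M2 and M3, in which miR-96 was lowest and below both background levels, were also the samples with the lowest sums. FT4, with nearly the same normalized count of miR-96 (29.8) as M1 (29.4), had the highest sum, 45392. FT3, with the highest normalized count of miR-96 (151.3), had the lowest sum of FT, 8247. The part of these epithelial miRNAs in the values of the cluster was not tested.

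Of these 7 miRNAs, 1 rose and 1 fell in M against CT, where 10.2% of all miRNAs rose and 4.24% fell. miR-205 rose by 4.2 on the log2 scale (SE 1.23, edgeR adjusted p = 0.0288) and miR-141 fell by 2.22 on the log2 scale (SE 0.636, edgeR adjusted p = 0.0257). The normalized counts of miR-205 in M1, M2, M3, M4 and M6 were 42.8, 1483, 27.6, 299.7 and 13448, on both sides of the 138.8 to 210.8 in CT. For miR-141 they were 32.1, 26.1, 19.3, 176.4 and 194.5, all below the 301.4 to 545.8 in CT. The median log2 fold change of the 7 was 0.41, beside 0.29 for all 566 miRNAs. In FT against CT none of the 7 passed, and their median was 0.38 beside 0.15 for all miRNAs. None passed in M against FT, where the medians were -0.72 and 0.10, or in TS against CS, where they were -0.36 and -0.89.

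Markers of other cells also differed between M and CT. Of 6 ciliated-cell miRNAs, miR-34b, miR-34c and miR-449 among them, 4 fell and all 6 were at or below the hybridization level in every M sample, with summed normalized counts of 32.6 to 107.0 in M and 315.9 to 3773 in CT. Of the 6, miR-449b and miR-449c were not above that level in any CT or FT sample either, and 48.8% of all miRNAs were not above it in any tissue sample. Of 5 smooth muscle and stroma miRNAs 3 fell, with sums of 626.5 to 3821 in M and 4713 to 13280 in CT. The leukocyte (5), erythrocyte (4), liver (3) and endothelium (2) lists each had 1 member that rose and none that fell. These counts stand beside the 10.2% of all miRNAs that rose and the 4.24% that fell. In FT against CT 1 liver miRNA rose, the only 1 of all 566 to pass (0.177%). In M against FT 2 ciliated miRNAs fell and 1 leukocyte miRNA rose, against 0.707% and 0.883% of all miRNAs, and in TS against CS none of the markers passed. The part of these markers in the values of the cluster was not tested.

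The miRNAs whose pattern was most like that of each member were sought over the 15 tissue samples, as Pearson's r of log2 (normalized count + 1) among miRNAs with a mean tissue count of at least 50 and the other members. These values are descriptions, since the points share their scaling and many counts were at background. miR-96 was below the hybridization level in CT5, FT2, FT4 and M1 to M4, and in M1 and M3 miR-141 was below it as well. miR-183 was above that level only in CT4, FT1, M2 and M6. miR-96 was most like miR-141 (r = 0.733, between 0.647 and 0.818 with any 1 sample left out), followed by miR-27a (r = 0.655) and miR-29a (r = 0.650). miR-183 was most like miR-205 (r = 0.800), miR-203 (r = 0.663) and miR-24 (r = 0.649). Without M6 these became 0.427 for miR-205, -0.00389 for miR-203 and 0.567 for miR-24, so the first 2 rested on the ovarian tumor, where miR-205 reached 19706 counts and miR-203 a normalized count of 307.8.

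**Figure D4:**
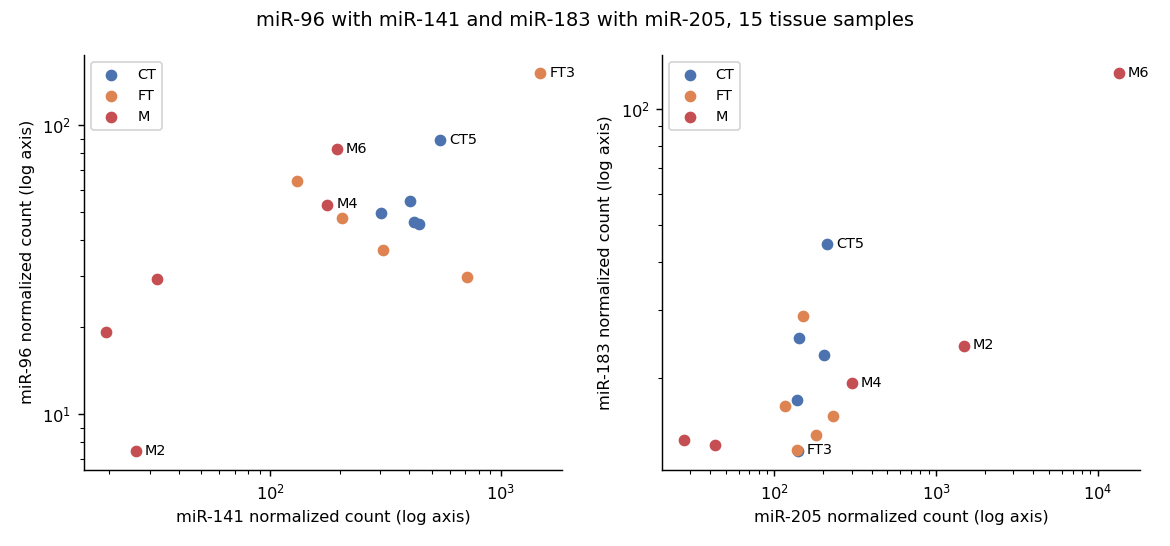
Normalized counts (both axes log) of miR-96 against miR-141 and of miR-183 against miR-205 in the 15 tissue samples, 1 point per sample, coloured by group. In the first panel M1, M2 and M3, whose miR-96 counts were below both background levels, lie at the lower left and FT3 at the upper right. In the second panel M6 lies alone at the upper right.

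miR-182 was most like miR-9 (r = 0.805), miR-98 (r = 0.797) and miR-210 (r = 0.792), and hardly like the other members. Its r was 0.0392 with miR-96, rank 74, and 0.000836 with miR-183, rank 79. The r of miR-183 with miR-96 was 0.228, rank 29 among the miRNAs compared with miR-183, and 0.0444 without M6. All counts of miR-182 behind these r were below the hybridization level of their samples.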

How the data were processed

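Version 1.5 of the mouse miRNA panel of NanoString's nCounter was used, and the authors deposited barcode counts for 626 probes, whole numbers per probe and sample, of which 566 are mouse miRNAs and 60 are controls or other probes. Each column was assigned to its sample, with 0 left over. Whether a correction was made before deposit is not given in the sources used here. The authors' nSolver normalization to the most abundant miRNAs (100 in tissue, 30 in plasma) was repeated without background subtraction. Tissue and plasma were normalized apart. The labels name serum as the source of TS and plasma as its tissue, and TS is called plasma. Left out were M5 and CS1, as in the study, and the qPCR and human data were not analysed here. The other engineered alleles of the mice are not reported here.

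The counts of all 566 miRNAs were tested by the quasi-likelihood method of edgeR 4.0.16 under R 4.3.3, with those geometric means standing for library sizes and a threshold of 0.05 on Benjamini-Hochberg adjusted p-values. Each fit held only the compared groups. The code was tested on simulated data. Ratios and single miRNAs were tested with two-sided exact permutation tests (252 arrangements for 5 samples against 5, 35 for 4 against 3) in Python 3.11.15 with scipy 1.17.1, numpy 2.4.6 and pandas 2.3.3. Alternatives were TMM, miR-425 and positive ligation control scaling, DESeq2 1.42.0, limma 3.58.1, the methods' t-test, a minimum mean count of 20, subtraction of the negative controls, a pseudocount of 10 for ratios, a joint fit of CT, FT and M, the replicate numbers as a block, and the omission of each sample in turn. After subtraction a count below the control mean was taken as no signal, and in ratios any value under 1 was set to 1.

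The members and the marker lists were chosen with earlier results of these data known. Named are the 3 members, list members past the threshold or at the ends of a range, the 3 miRNAs most like each member, and miR-425. The epithelium list holds the miR-200 family, and the list of 7 adds miR-203 and miR-205.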

Additional observations from a re-analysis of the deposited data

Results flagged for a closer look

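In 4 of 12 groups of at least 4 samples, 1 sample's normalized count of a member lay far from the rest, meaning that its gap to the nearest sample took a larger part of the group's whole range than Dixon's 95% limit allows. Chance marks about 1 in 20 such groups if their values are normal. Normalized counts need not be normal and the groups reuse the same samples for each member, so 4 of 12 is not weighed against that share. For miR-183 these were FT1, whose gap was 0.755 of the range of FT at a normalized count of 29.0, and M6, the ovarian tumor, at 0.902 of the range of M with a normalized count of 123.5. For miR-96 they were CT5, at 0.791 of the range of CT with 89.0, and FT3, at 0.719 of the range of FT with 151.3. CT5 had the lowest deposited count of miR-96 in CT, 38, below its hybridization level. It stood high only after scaling, by the largest factor of CT, 2.34. Of the log2 ratios between members, also tested in 12 groups, 1 had such a sample, the ratio of miR-183 to miR-96 in TS4, at 0.861 of the range of TS.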

How the results depend on the processing

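Of 233 alternative values for the members' fold changes 212 kept both their direction and their side of the threshold, and of 135 for the ratios 121 did. A value without an adjusted p was counted as not past the threshold, as for miR-183 in M against CT with DESeq2 at the same scaling. For miR-182, M against CT passed the threshold with TMM (1.27, adjusted p = 0.0131), miR-425 scaling (1.74, 0.0495) and DESeq2 at the same (1.41, 0.0207) or its own scaling (1.32, 0.00202), ranged from 1.0 to 1.57 with 1 sample left out and was 4.76 with the negative controls subtracted, which left signal in M2 and M6 only. Between TS and CS miR-182 turned to 0.72 (TMM), 0.12 (miR-425), 1.36 (positive ligation controls) and 0.66 (DESeq2's own scaling). Its FT effect minus plasma effect turned to -0.0928 (TMM). miR-183, FT against CT, turned to 0.91 (positive ligation controls), 0.00853 (DESeq2's own scaling) and 0.31 (negative controls subtracted), and miR-96, M against CT, to 0.0615 (positive ligation controls). With 1 sample left out, miR-96 ranged from -0.35 to 0.41 for FT against CT. miR-183 ranged from -0.39 to 1.07 for M against CT, from -0.0181 to 1.42 for M against FT and from -0.60 (without CS4) to 1.06 for TS against CS. miR-182 ranged from -1.48 to 0.95 (without CS3) for TS against CS.

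The shared sample numbers did not pair the samples, whose deviations correlated between -0.375 and 0.322. With the replicate block miR-96 became -0.00855 for FT against CT and -1.65 for TS against CS (adjusted p = 0.0260), miR-183 became -0.14 for M against CT, and the block changed no other call of a member.

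With the negative controls subtracted, the log2 ratio of miR-182 to miR-96 passed for M against CT (4.95, adjusted p = 0.0317) and M against FT (3.74, 0.0476), as did that of miR-183 to miR-96 (4.25 and 3.59, both 0.0317), which for FT against CT turned to 0.66. Subtracted values under 1 were set to 1. It held for miR-182 in all CT samples, FT2 to FT5, M1, M3 and M4, and for miR-96 in M1, M2 and M3. For miR-183 it held in CT3, FT2 to FT4, M1, M3 and M4. The ratios that passed are partly set by this limit, and no difference between groups is read from them. The ratio of miR-182 to miR-183 for M against FT became -0.0319 with a pseudocount of 10. Left-out samples gave it -0.34 to 0.63 for M against FT and -0.69 to 0.12 for TS against CS, and gave the ratio of miR-183 to miR-96 for FT against CT -0.65 to 0.0572. The cause of these shifts was not tested. By either hybridization limit, mean plus 2 SD or the highest control, 12 values of the members and 0 of miR-182 were above background.

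The number of miRNAs past the threshold was 1 for FT against CT (0 to 6 with other settings, 0 to 12 with 1 sample left out, 12 without FT3), 82 for M against CT (32 to 190, 50 to 101), 9 for M against FT (0 to 39, 4 to 33) and 0 for TS against CS (0 to 96, 96 with the replicate block). miR-182 could not be fitted at a minimum mean count of 20.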
